A study of Homo sapiens with 42 samples.

Results

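Mitochondrial ribosomal protein genes were chosen by name and type: rows of both count tables whose symbol is MRPL or MRPS followed by a number and whose GENCODE biotype is protein-coding. The rule found 78 genes, 49 named MRPL and 29 named MRPS, of 58243 gene IDs in the tables. They were followed in K562, an established line from a chronic myeloid leukaemia that carries the BCR-ABL1 kinase fusion, in 42 libraries. Cells were untreated (CTRL), or received imatinib (IM, 1 µM), which blocks the BCR-ABL1 kinase, JTE-607 (JTE, 5 µM), an inhibitor of the pre-mRNA 3′ end nuclease CPSF73, or KCl at 110 mM as an osmotic stress. Poly(A) mRNA of whole cells was sequenced from CTRL, IM 1h, IM 6h, IM 18h, JTE 1h, JTE 6h, JTE 18h, KCl 1h and KCl 3h. Nuclear RNA depleted of ribosomal RNA was sequenced from CTRL, IM 1h, IM 18h, JTE 1h and KCl 1h. Each of the 14 groups had 3 biological replicates of this single cell line.

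Mitochondria make a handful of inner membrane proteins of the respiratory chain on ribosomes of their own. The rRNAs of that ribosome come from the mitochondrial genome, while all of its proteins are encoded in the nucleus, translated in the cytosol and imported. Some of these proteins have a counterpart in bacterial ribosomes and others are particular to mitochondria. The names do not always follow the subunits: MRPS30 and MRPS18A are proteins of the large subunit, and MRPS36 is a component of the oxoglutarate dehydrogenase complex. By class, 30 members were large subunit proteins with a bacterial counterpart, 21 large subunit proteins particular to mitochondria, 16 small subunit proteins with a bacterial counterpart and 10 small subunit proteins particular to mitochondria.

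The mRNA libraries held 16439848 to 62953314 counts each, with KCl 1h replicates 2 and 3 the deepest, and the nuclear libraries 16175394 to 25103205. Replicates within each group differed by more than sampling noise and each counted as 1 sample. The K562 and erythroid marker genes were expressed, and the T cell, B cell, pancreatic and keratinocyte markers CD3E, MS4A1, INS and KRT5 were at most 0.434 CPM (counts relative to the scaled library total) in any library, with INS at 0 in all. EPCAM, an epithelial gene, was at 51.0 to 108 CPM.

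All 78 members passed the filter on low counts in both fractions. They lay on 21 chromosomes, and 27 of them (34.6%) had a protein-coding gene on the other strand that starts within 1000 bases of their own start in GENCODE 44, compared with 13.4% of 20046 protein-coding genes. Together they took 0.532, 0.499 and 0.482% of the counts in the mRNA CTRL replicates and 0.510, 0.520 and 0.529% in the nuclear CTRL replicates. After 18 h of imatinib the share was 0.354, 0.379 and 0.391% in mRNA and 0.351, 0.384 and 0.370% in nuclear RNA, below every CTRL library of the same fraction. In the other mRNA groups, replicate 3 held the lowest share of the 3 in IM 1h, IM 6h, JTE 1h, JTE 6h, KCl 1h and KCl 3h. The counts are relative to the whole library, so fewer transcripts per cell and a larger amount of other RNA cannot be told apart.

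**Figure D1:**
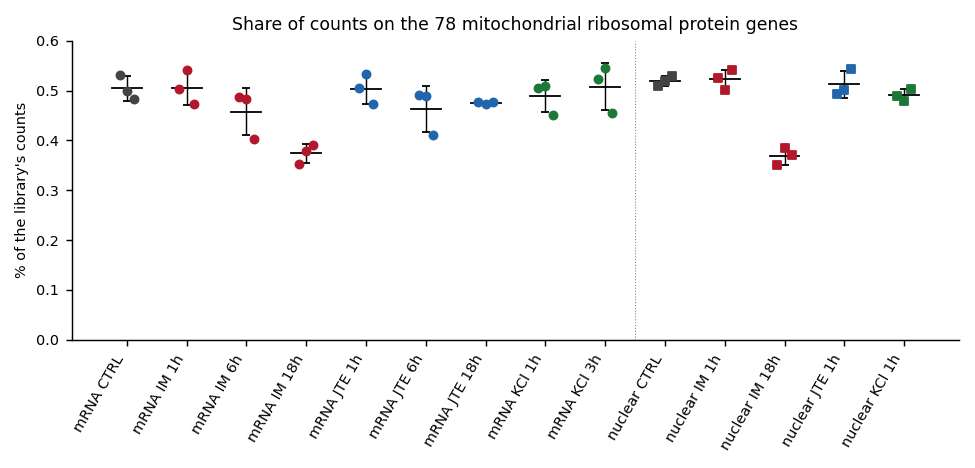
Share of each library's counts on the 78 mitochondrial ribosomal protein genes (y axis, percent, from 0) by group (x axis). Circles are mRNA and squares nuclear RNA libraries, lines are group means and bars the SD of 3 replicates; the IM 18h libraries lie between 0.351 and 0.391% and the CTRL libraries between 0.482 and 0.532%.

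Levels per length in untreated cells spanned a 364-fold range. Divided by the length of the merged exons, the median member stood at 20.6 CPM per kb in mRNA CTRL and 23.3 CPM per kb in nuclear CTRL. The highest in mRNA was MRPL47, a protein near the tunnel through which the new chain leaves, at 83.8 ± 4.64 CPM per kb (SD, n = 3). MRPL37 followed at 80.0 ± 5.05, MRPL3 at 76.8 ± 7.71 and MRPL15 at 75.8 ± 5.93 CPM per kb. These highest members overlapped their neighbours in the order, as did 69 of the 77 neighbouring pairs in the whole order. The lowest were MRPL46 at 1.36 ± 0.123, MRPL53 at 1.04 ± 0.294, MRPL38 at 0.603 ± 0.188 and MRPS24 at 0.231 ± 0.0782 CPM per kb, in that order. MRPL46 overlapped MRPL53, while MRPL53, MRPL38 and MRPS24 did not overlap each other. Each of these lowest members overlaps an annotated gene on its own strand in GENCODE 44: MRPS24 the read-through gene URGCP-MRPS24, MRPL53 CCDC142, and MRPL38 and MRPL46 genes without a symbol. Such overlap was not limited to them: 24 of the 78 members overlap a gene on their own strand, and 49 overlap a gene on either strand. Pairs that fell on several genes went uncounted in the authors' tables. The levels of overlapping members, the lowest among them, are therefore uncertain, and the size of that loss was not tested.

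The first question was how the members responded over the course of BCR-ABL1 inhibition. After 1 h of imatinib no member was called in mRNA (0.0166% of all 18095 genes tested were) or nuclear RNA (0.0456% of 21929). A call required an adjusted p under 0.05 by the quasi-likelihood test of edgeR together with a log2 change larger than 0.6 in size. At an unadjusted p under 0.05 the counts were 0 in mRNA and 1 in nuclear RNA, and DESeq2 also called 0 members in both. The median log2 fold change of the members was 0.00 in mRNA and 0.04 in nuclear RNA, and the interaction between fraction and treatment called 0 members and 0 genes, with 0 members at an unadjusted p under 0.05 and 0 by DESeq2.

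At 6 h of imatinib 5 members were lower and none higher in mRNA, 6.41% of the members beside 4.12% of all genes called lower. Without the fold threshold 14 members were lower (17.9%, beside 7.85% of all genes), and the median log2 fold change was -0.17, compared with 0.04 over all genes tested. The 5 were MRPS17, MRPL36, MRPS12, MRPS2 and MRPS30. MRPS2, a small subunit protein with a bacterial counterpart, went from 53.2, 48.5 and 49.2 CPM in the CTRL replicates to 33.0, 27.3 and 28.2 CPM, with a log2 fold change of -0.77 ± 0.11 (SE, adjusted p = 4.8e-05). MRPS30 went from 118, 120 and 107 CPM to 76.2, 66.9 and 78.3 CPM, with a log2 fold change of -0.64 ± 0.12 (adjusted p = 0.000827). In both genes every treated library was below every CTRL library. Without CTRL replicate 1 the count was 3, and all 5 were also called lower at 18 h, a comparison with the same CTRL libraries.

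At 18 h of imatinib the family was lower in both fractions. In mRNA 26 members were called lower and none higher, 33.3% of the members beside 13.2% of all genes called lower and 17.2% called higher. With no fold threshold 59 members were lower and 1 was higher, 75.6% lower beside 21.0% of all genes lower and 22.8% higher. The median log2 fold change of the members was -0.49 (quartiles -0.72 and -0.30), while the median of all genes was 0.04. Treated and CTRL libraries did not overlap for 62 members (79.5%), compared with 55.5% of all genes. Among 82 tested genes of the cytosolic ribosome, matched by symbol, 7 were called lower and none higher, with a median log2 fold change of 0.10.

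MRPS12, a small subunit protein near the decoding site (ENSG00000128626, hg38 chr19:38930944-38933168), had the largest fall. Its level was 41.5, 31.4 and 37.7 CPM in the mRNA CTRL replicates, 22.4, 24.6 and 17.5 CPM in IM 6h and 9.99, 13.6 and 14.4 CPM in IM 18h. The groups did not overlap at either time, and the log2 fold change was -0.78 ± 0.24 at 6 h (adjusted p = 0.029) and -1.54 ± 0.25 at 18 h (adjusted p = 2.92e-05). MRPL36, a small zinc-binding protein of the large subunit (ENSG00000171421, chr5:1798385-1801366), was at 33.5, 25.9 and 26.0 CPM in CTRL, 16.1, 17.9 and 15.6 CPM in IM 6h and 10.6, 12.2 and 15.5 CPM in IM 18h. Its log2 fold change was -1.16 ± 0.20 at 18 h (adjusted p = 6.37e-05), and the highest IM 18h library stood just under the lowest IM 6h library.

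MRPL12, the stalk protein that contacts translation factors (ENSG00000262814, chr17:81703367-81707517), went from 15.2, 13.4 and 10.8 CPM in CTRL to 4.51, 6.00 and 7.59 CPM in IM 18h, a log2 fold change of -1.12 ± 0.26 (adjusted p = 0.0011). MRPL4, a large subunit protein with a bacterial counterpart, went from 62.1, 53.4 and 58.2 CPM to 25.3, 28.4 and 28.8 CPM, a log2 fold change of -1.07 ± 0.13 (adjusted p = 9.09e-07). MRPL3, close to the site of peptide bond formation, went from 232, 193 and 200 CPM to 89.7, 111 and 114 CPM, a log2 fold change of -0.99 ± 0.15 (adjusted p = 9.91e-06). In all 3 genes every IM 18h library lay below every CTRL library. MRPS26, MRPS17 and MRPS2 were the other members called with a log2 fold change beyond -1, at -1.07, -1.05 and -1.03.

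**Figure D2:**
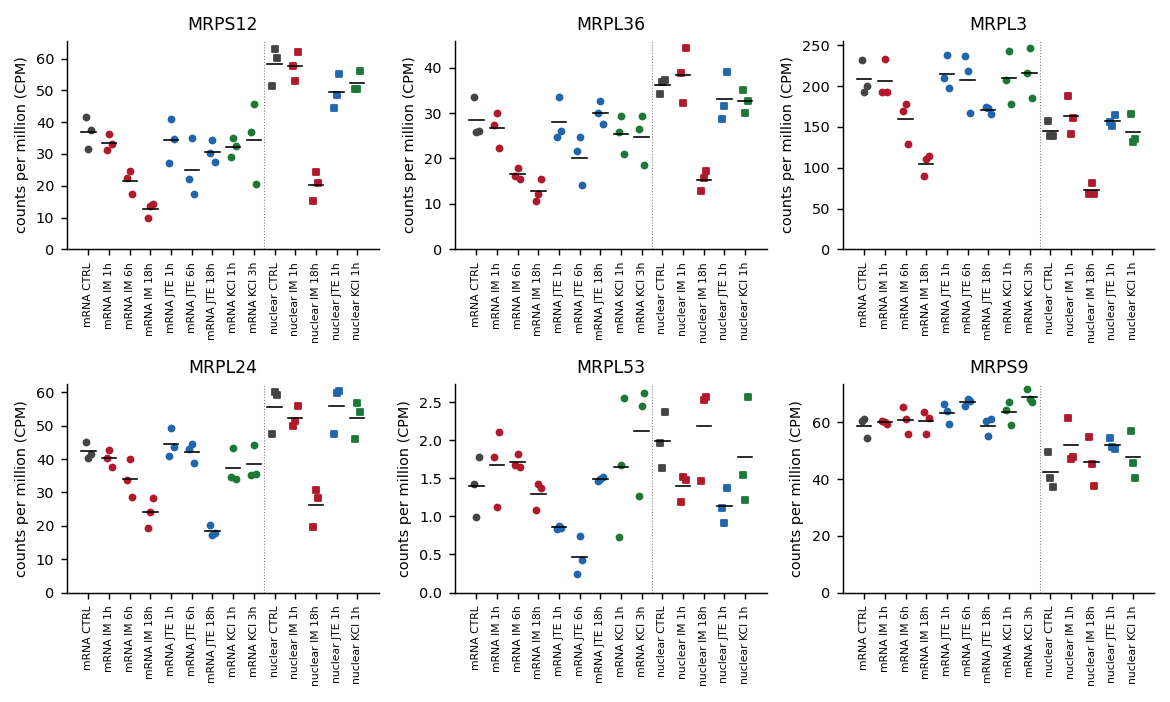
Level of 6 members in every library (y axis, CPM, from 0 and scaled for each gene) by group (x axis), with circles for mRNA, squares for nuclear RNA and lines for the mean of 3 replicates. MRPS12, MRPL36 and MRPL3 were lower in IM 18h in both fractions, MRPL24 was lower in IM 18h and JTE 18h, MRPL53, at under 3 CPM throughout, was lower in JTE 6h, and MRPS9 was called in no comparison.

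Members called lower in IM 18h mRNA were found in both subunits and both evolutionary classes, where 13.2% of all genes were called lower with a median of 0.04. Of the large subunit proteins, 12 of 30 with a bacterial counterpart and 4 of 21 particular to mitochondria were called lower, with median log2 fold changes of -0.57 and -0.40. Of the small subunit proteins, 5 of 16 with a bacterial counterpart and 5 of 10 particular to mitochondria were called lower, with medians of -0.45 and -0.51. The 4 of 21 lay near the share of all genes called lower. No difference between these classes was tested, and the counts by region that follow are small and were not tested against that share. In the stalk region 1 of 5 members was called lower (MRPL12), in the central protuberance 2 of 7 (MRPL46 and MRPL55), and among the 8 members listed for the region where the exit tunnel opens 2 (MRPL24 and MRPL47). MRPL58, a peptidyl-tRNA hydrolase that releases stalled chains, was at -0.72 ± 0.09 (adjusted p = 2.33e-06). The 3 paralogs of bacterial protein S18 were not called, with log2 fold changes of -0.59 for MRPS18A, -0.35 for MRPS18B and -0.29 for MRPS18C, and MRPS36 was at -0.15.

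A smaller set of members stayed near the CTRL level. MRPS9, a small subunit protein with a bacterial counterpart, was at 60.6, 61.1 and 54.7 CPM in mRNA CTRL and 63.8, 56.0 and 61.5 CPM in IM 18h. MRPL45, which lies at the tunnel exit facing the inner membrane, was at 87.3, 84.0 and 77.4 CPM in CTRL and 88.7, 76.8 and 85.4 CPM in IM 18h. In these genes the groups overlapped. MRPS25, a small subunit protein particular to mitochondria, was the 1 member with a higher level and an adjusted p under 0.05, at 99.6, 87.5 and 85.1 CPM in CTRL and 98.6, 115 and 117 CPM in IM 18h (log2 fold change 0.28 ± 0.10, adjusted p = 0.0241), with libraries that overlapped between the groups. Over all comparisons with CTRL in both fractions 32 members were called in none, and 7 (MRPL22, MRPL35, MRPL45, MRPS31, MRPS36, MRPS6 and MRPS9) did not reach an adjusted p under 0.05 in any.

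In nuclear RNA at 18 h of imatinib, 38 members were lower and none higher, 48.7% of the members beside 15.4% of all 21929 genes called lower and 17.2% called higher. With no fold threshold 62 were lower and none higher, 79.5% beside 23.1% of all genes lower and 22.6% higher. The median log2 fold change was -0.59, compared with 0.00 over all genes tested, and 68 members (87.2%) had libraries that did not overlap, beside 53.6% of all genes. MRPS12 led again, from 51.5, 63.0 and 60.3 CPM in nuclear CTRL to 15.1, 24.4 and 20.9 CPM (log2 fold change -1.53 ± 0.14, adjusted p = 5.12e-08). MRPL12 went from 22.7, 26.7 and 24.2 CPM to 7.43, 11.1 and 11.2 CPM (log2 fold change -1.31 ± 0.15, adjusted p = 4.59e-07). MRPL36 and MRPS2 followed, with log2 fold changes of -1.25 ± 0.14 and -1.21 ± 0.10. In each of the 4 genes the nuclear IM 18h libraries were all below the nuclear CTRL libraries.

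Of the members called lower, 25 were called in both fractions, beside 11.7% of the 16728 genes tested in both. These 25 made up 96.2% of the members called in mRNA and 65.8% of those called in nuclear RNA, while the same shares over all genes called lower were 87.5% and 67.3%, so the overlap for the members was near that for all genes. MRPL55 was called in mRNA alone and 13 members in nuclear RNA alone, among them MRPL1, MRPL11, MRPL18 and MRPS21. Across the 78 genes, which are not independent replicates, Pearson's r between the log2 fold changes of the 2 fractions was 0.94 and Spearman's rho 0.94, and 75 members had the same sign; the fractions came from separate libraries with separate controls. An interaction of fraction and treatment, fitted to 12 libraries, called no member (0.0901% of all 19967 genes tested were). The interactions ran from -0.33 to 0.29 with a median of -0.03, and the 1 member at an unadjusted p under 0.05 was MRPS25 (-0.33 ± 0.15, adjusted p = 0.981). DESeq2 also called 0 members. For MRPS12 the interaction was 0.06 ± 0.24, so differences of that size between the fractions were not detectable here.

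**Figure D3:**
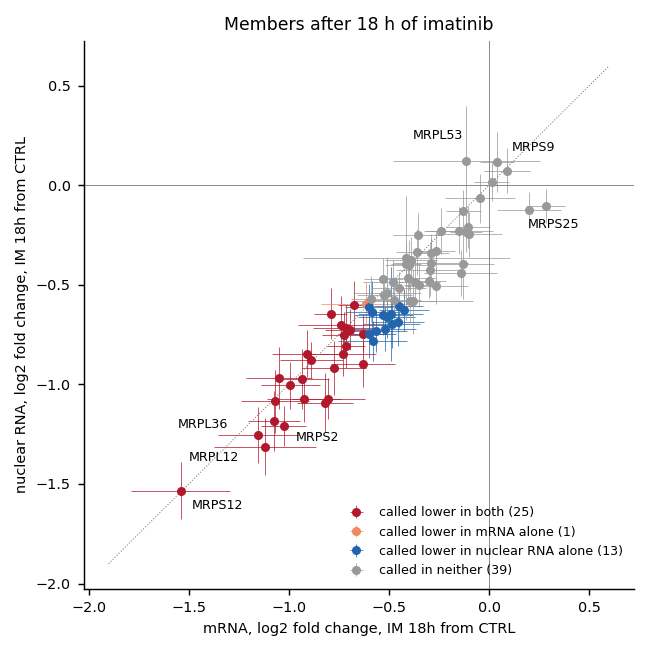
Log2 fold change of each of the 78 members after 18 h of imatinib in mRNA (x axis) and nuclear RNA (y axis), with SE bars and a dotted line of equal change. Red points are the 25 members called lower in both fractions, blue the 13 called in nuclear RNA alone, orange the 1 called in mRNA alone and grey the 39 called in neither, and the points run along the line, with MRPS12 at the lower left.

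The time points were compared directly. From 6 h to 18 h of imatinib 6 members were lower and none higher in mRNA, 7.69% of the members beside 1.93% of all genes called lower, with a median log2 difference of -0.31 (0.00 over all genes). They were MRPL47 at -0.72, MRPL4 at -0.65, MRPL41 at -0.63, MRPS26 at -0.63, MRPL21 at -0.61 and MRPL3 at -0.60. MRPL47 was at 115, 105 and 77.2 CPM in IM 6h and 58.3, 62.7 and 59.3 CPM in IM 18h, so the groups did not overlap. The count turned on single libraries: leaving out IM 6h replicate 2 gave 1, as did leaving out IM 18h replicate 1, while IM 6h replicate 1 gave 2, IM 18h replicate 2 gave 3 and IM 6h replicate 3 gave 11, the last being the IM 6h library with the lowest share of counts on the members.

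Promoter windows of members are shown because the members fell together. RefSeq windows (GRCh38.p14, 250 bases before to 50 after the first listed start) were matched for 69 members by gene and searched on both strands for 4 motifs: the ETS family motif CCGGAAG, which GABPA binds, the E-box CACGTG, which MYC binds, the core motif of NRF1 (nuclear respiratory factor 1), and AAGATGGCG, which YY1 binds. The windows below hold the 120 bases before the start, 5′ to 3′ on the strand of the gene, with motif matches in capitals, and a match on the other strand is printed as its reverse complement. No match in them overlaps another. The GENCODE gene of MRPL36 extends past the RefSeq start, so its window lies inside that gene. The first 6 had the largest called falls among members with a match in these 120 bases, and MRPS9 and MRPL45 were added, after their values were seen, as members that were not called. The whole window of MRPL45 held an E-box and an NRF1 match outside the bases shown.
MRPL36 (chr5:1799838-1799957, minus strand, NRF1, E-box and YY1): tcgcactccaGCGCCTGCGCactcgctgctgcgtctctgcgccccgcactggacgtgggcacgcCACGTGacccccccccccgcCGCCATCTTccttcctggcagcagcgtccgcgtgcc
MRPS26 (chr20:3045932-3046051, plus strand, ETS): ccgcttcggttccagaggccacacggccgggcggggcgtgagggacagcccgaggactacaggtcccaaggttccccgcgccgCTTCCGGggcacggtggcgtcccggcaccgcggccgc
MRPL3 (chr3:131502972-131503091, minus strand, ETS): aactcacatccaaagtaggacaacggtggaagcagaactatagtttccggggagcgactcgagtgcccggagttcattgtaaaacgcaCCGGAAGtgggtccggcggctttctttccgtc
MRPL47 (chr3:179604639-179604758, minus strand, ETS): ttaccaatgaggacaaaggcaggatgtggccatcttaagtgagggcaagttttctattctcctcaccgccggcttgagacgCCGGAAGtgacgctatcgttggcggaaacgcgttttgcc
MRPS22 (chr3:139343874-139343993, plus strand, ETS on both strands): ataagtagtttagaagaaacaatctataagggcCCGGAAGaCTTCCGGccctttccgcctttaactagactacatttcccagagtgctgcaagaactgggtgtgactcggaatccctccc
MRPL20 (chr1:1407294-1407413, minus strand, ETS at 2 places): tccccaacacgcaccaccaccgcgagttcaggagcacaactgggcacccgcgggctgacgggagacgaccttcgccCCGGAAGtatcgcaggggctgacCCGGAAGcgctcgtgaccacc
MRPS9 (chr2:105037949-105038068, plus strand, NRF1, not called): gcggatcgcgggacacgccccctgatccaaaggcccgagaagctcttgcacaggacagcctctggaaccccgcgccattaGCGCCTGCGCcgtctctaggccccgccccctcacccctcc
MRPL45 (chr17:38297048-38297167, plus strand, no match in these bases, not called): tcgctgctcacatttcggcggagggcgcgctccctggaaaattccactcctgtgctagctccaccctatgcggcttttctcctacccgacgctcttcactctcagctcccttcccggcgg

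Over the whole windows the ETS motif was found in 29 of 69 members (42.0%), compared with 10.7% of 27305 RefSeq windows, and the YY1 motif in 13 (18.8%), compared with 1.8%. The NRF1 motif was found in 8 members (11.6%, beside 6.3%) and the E-box in 6 (8.7%, beside 7.4%). The RefSeq windows were not limited by gene type or expression, whereas all members are protein-coding and passed the filter on low counts. A comparison with expressed protein-coding genes alone was not made. Of the 23 members called lower in mRNA at IM 18h that had a window, 10 held the ETS motif, 3 the YY1 motif, 1 the NRF1 motif and 1 the E-box. Of the 46 other members with a window, 19 held the ETS motif, 10 the YY1 motif, 7 the NRF1 motif and 5 the E-box. No motif was found in 24 members. The matches describe letters in these windows and show neither binding nor a cause.

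Lists of genes that work with the mitochondrial ribosome were read in IM 18h mRNA, where 13.2% of all genes were called lower and 17.2% higher. Of 25 assembly factors 10 were called lower and none higher in IM 18h mRNA, with a median log2 fold change of -0.46. MPV17L2, needed to assemble the ribosome at the inner membrane, went from 28.7, 21.6 and 23.6 CPM to 5.65, 8.74 and 8.64 CPM, a log2 fold change of -1.68 ± 0.18, and DDX28, a helicase of large subunit assembly, was at -1.17 ± 0.16. Of 14 translation factors 7 were called lower and none higher, led by the elongation factors TSFM at -0.92 ± 0.12 and GFM1 at -0.85 ± 0.13. MTIF3, an initiation factor, was at 0.37 ± 0.14 (adjusted p = 0.0305), under the fold threshold. Of 5 ribosomal proteins with other symbols, AURKAIP1 alone was called lower, at -0.67 ± 0.16, a count near the share of all genes.

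Of 6 genes for transcription and replication of the mitochondrial genome 4 were called lower, beside 13.2% of all genes. They were the helicase TWNK at -1.72 ± 0.24, the transcription factor TFB2M at -1.53 ± 0.19, the packaging factor TFAM at -0.97 ± 0.10 and the polymerase POLRMT at -0.88 ± 0.12. Of 8 tested regulators of nuclear genes for mitochondria 3 were called lower, the coactivators PPARGC1B at -1.82 ± 0.28 and PPRC1 at -1.22 ± 0.24, and MYC. MYC stood at 277, 369 and 230 CPM in CTRL and 83.8, 97.0 and 112 CPM in IM 18h (log2 fold change -1.58 ± 0.29, adjusted p = 0.00014). The log2 fold changes of NRF1, GABPA and GABPB1 were -0.10, 0.16 and 0.02. YY1, whose motif was also searched, was lower, at a mean of 185 CPM in mRNA CTRL and 130 CPM in mRNA IM 18h. Whether any of these regulators had a part in the falls of the members was not tested. The erythroid and K562 markers rose in the same libraries, with 5 of 8 called higher and none lower in each fraction, beside 17.2% of all genes called higher in each. The summed level of these markers was 3044 to 4760 CPM in mRNA CTRL and 9598 to 13610 CPM in mRNA IM 18h, and their part in the falls was not tested. The markers of other cell types summed to 90.2 to 98.3 CPM in mRNA CTRL and 85.2 to 91.7 CPM in mRNA IM 18h, with 1 of 3 tested (COL1A1, 2.65-fold from a CTRL mean of 0.529 CPM) called higher.

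**Figure D4:**
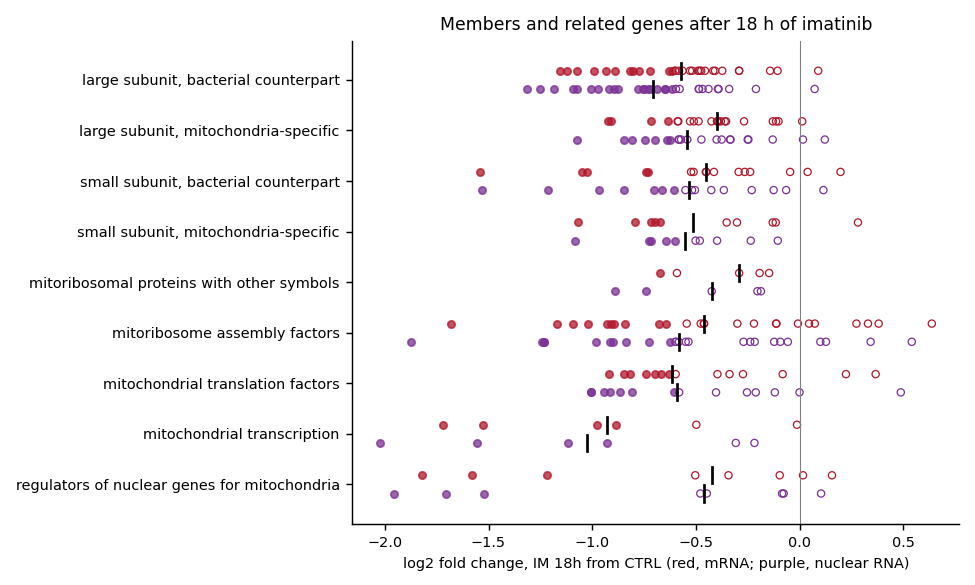
Log2 fold change after 18 h of imatinib (x axis) of each gene in the 4 classes of members and in 5 lists of related genes (y axis), in mRNA (red) and nuclear RNA (purple). Filled points passed the call, open points did not, and black ticks are list medians, which ran from -0.93 to -0.29 in mRNA.

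The second question was whether blocking 3′ end cleavage gave a like response. After 1 h of JTE no member was called in mRNA (0.851% of all genes were), with 3 members at an unadjusted p under 0.05 and 0 called by DESeq2. In nuclear RNA at 1 h MRPL38, a central protuberance protein, was called lower, 1.28% of the members beside 1.51% of all genes called lower. It went from 5.94, 7.15 and 6.59 CPM in nuclear CTRL to 3.88, 3.92 and 4.03 CPM (log2 fold change -0.73 ± 0.16, adjusted p = 0.00538). The nuclear replicate numbers pair the libraries, and with the replicate block 2 members were called. No interaction between fraction and treatment was called for a member at 1 h of JTE (0.0605% of all genes were), with 0 at an unadjusted p under 0.05 and 0 called by DESeq2.

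At 6 h of JTE 10 members were lower in mRNA and none higher, 12.8% of the members beside 6.47% of all genes called lower. The median log2 fold change of the members was -0.07, and the quartiles were -0.40 and 0.10, so members lay on both sides of 0. The median was 0.04 without JTE 6h replicate 3. MRPS18A, a large subunit protein despite its name, went from 31.1, 27.8 and 30.4 CPM in CTRL to 15.0, 17.5 and 14.2 CPM (log2 fold change -0.93 ± 0.10, adjusted p = 5.12e-07). MRPL12 went from 15.2, 13.4 and 10.8 CPM to 7.38, 9.11 and 4.84 CPM (log2 fold change -0.89 ± 0.25, adjusted p = 0.0148) and MRPS17 from 11.8, 10.2 and 11.3 CPM to 5.08, 7.40 and 5.89 CPM (log2 fold change -0.86 ± 0.16, adjusted p = 0.000483). In these genes the groups did not overlap. MRPL53, a stalk base protein (ENSG00000204822, chr2:74471982-74472687), had the largest fall, from 1.43, 0.995 and 1.78 CPM to 0.248, 0.740 and 0.431 CPM (log2 fold change -1.55 ± 0.42, adjusted p = 0.0103), and rests on 4, 13 and 9 counts in JTE 6h. CCDC142, which overlaps it on the same strand, had a log2 fold change of -1.92 in the same libraries.

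The other members called lower at 6 h of JTE were MRPL57, MRPL46, MRPL17, MRPS10, MRPL43 and MRPL27. MRPS10, a small subunit protein with a bacterial counterpart, was at 110, 110 and 119 CPM in CTRL and 72.3, 74.0 and 64.3 CPM in JTE 6h, without overlap. Of the 10, 3 were also called lower in IM 18h mRNA (MRPL12, MRPL46 and MRPS17), a comparison that shares the CTRL libraries. That overlap was near the 33.3% of all members called lower in IM 18h mRNA. Among members not past the fold threshold, MRPL33, a large subunit protein, was at 0.41 (adjusted p = 0.0272) and MRPS33, a small subunit protein, at 0.35 (adjusted p = 0.0024). Without JTE 6h replicate 2 the count was 16.

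At 18 h of JTE 4 members were lower, 5.13% of the members beside 2.09% of all genes called lower, and the median log2 fold change was -0.14. MRPL12 was at 4.21, 6.78 and 4.60 CPM (log2 fold change -1.34 ± 0.26, adjusted p = 0.00163), below every CTRL library and overlapping the JTE 6h libraries. MRPL24, a large subunit protein near the exit tunnel (ENSG00000143314, chr1:156737303-156741590), was at 45.0, 40.3 and 41.6 CPM in CTRL, 42.9, 44.7 and 38.8 CPM in JTE 6h and 20.2, 17.2 and 17.9 CPM in JTE 18h (log2 fold change at 18 h -1.20 ± 0.14, adjusted p = 8e-06). The JTE 18h libraries of MRPL24 all lay below those of CTRL and JTE 6h. MRPL55 and MRPL46 were at -0.75 ± 0.22 and -0.61 ± 0.17, and the count was 2 without any of CTRL replicates 1 and 2 and JTE 18h replicates 1 and 3.

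Between 6 and 18 h of JTE 2 members were higher and 1 lower, 3.85% of the members beside 13.4% of all genes called in either direction. MRPL53 was higher at 18 h, at 1.47, 1.49 and 1.52 CPM (log2 difference 1.64), and MRPL17, near the exit tunnel, was at 12.4, 14.9 and 11.4 CPM in JTE 6h and 18.4, 22.5 and 20.2 CPM in JTE 18h (log2 difference 0.66). MRPL24 was lower, with a log2 difference of -1.19. The count was 5 without JTE 18h replicate 1 or 3 or JTE 6h replicate 1, and 9 without JTE 6h replicate 2.

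Some members called under JTE start close behind another gene on the same strand. MRPL24 starts 519 bases after the end of HDGF, which was at 538 CPM in CTRL and 502 CPM in JTE 18h (log2 fold change -0.10, adjusted p = 0.82). MRPL12 starts 229 bases after HGS, which was at 76.0 CPM in CTRL and 58.5 CPM in JTE 18h (log2 fold change -0.38, adjusted p = 0.107). MRPL46 starts within 1000 bases of MRPS11, another member, which lies on the other strand, and at 18 h of JTE their log2 fold changes were -0.61 and 0.47 (adjusted p = 0.0151 for MRPS11). The difference within such pairs was not tested.

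The treatments were compared directly at 18 h in mRNA. IM 18h was lower than JTE 18h for 18 members and higher for none, 23.1% of the members beside 13.6% of all genes called lower, with a median log2 difference of -0.33 (0.04 over all genes). MRPS12 was at 9.99 to 14.4 CPM in IM 18h and 30.8 CPM on average in JTE 18h (log2 difference -1.28 ± 0.25, adjusted p = 0.000225). MRPL36 was at 12.8 and 30.1 CPM on average (log2 difference -1.24 ± 0.20), MRPL47 at 60.1 and 117 CPM (-0.96 ± 0.14) and MRPS11 at 19.4 and 36.7 CPM (-0.92 ± 0.12). The libraries of the 2 treatments did not overlap for these 4 genes.

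The third question was the response to osmotic stress. After 1 h of KCl no member was called in mRNA (5.45% of all genes were), with 5 at an unadjusted p under 0.05 and 0 called by DESeq2. In nuclear RNA at 1 h 2 members were lower, 2.56% of the members beside 8.50% of all genes called lower. MRPL38 went from 5.94, 7.15 and 6.59 CPM to 3.15, 3.30 and 3.93 CPM (log2 fold change -0.92 ± 0.17, adjusted p = 0.000212). MRPL46, also of the central protuberance, went from 16.8, 18.4 and 18.0 CPM to 10.1, 10.3 and 11.3 CPM (log2 fold change -0.75 ± 0.12, adjusted p = 4.5e-05). With the replicate block, which pairs the nuclear libraries, 3 members were called. The interaction between fraction and treatment called no member (0.668% of all genes were), with 0 at an unadjusted p under 0.05 and 0 called by DESeq2.

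At 3 h of KCl 4 members were lower in mRNA, 5.13% of the members beside 7.33% of all genes called lower, and the median log2 fold change was 0.04, which changed sign to -0.05 without KCl 3h replicate 2 and to -0.01 without CTRL replicate 3. MRPL38 went from 2.59, 1.41 and 2.62 CPM to 0.930, 1.09 and 0.544 CPM (log2 fold change -1.36 ± 0.32, adjusted p = 0.00374). MRPL17 went from 22.7, 20.5 and 21.9 CPM to 15.3, 13.6 and 10.7 CPM (log2 fold change -0.71 ± 0.14), and MRPS17 had a log2 fold change of -0.63 ± 0.16. In these 3 genes the groups did not overlap. MRPS24, a small subunit protein, had the largest fall at -1.72 ± 0.58 (adjusted p = 0.0462), but it rests on 13, 7 and 13 counts in CTRL and 1, 2 and 8 in KCl 3h, libraries that overlap, and DESeq2 did not call it (adjusted p = 0.0511). The count was 2 when CTRL replicate 1 or KCl 3h replicate 3 was left out. From 1 h to 3 h of KCl no member was called (3.29% of all genes were), with 5 at an unadjusted p under 0.05 and 0 called by DESeq2.

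Across the comparisons with CTRL no member was called higher under any treatment. In all, 46 members were called lower at least once, beside 33.1% of the 16728 genes tested in both fractions. Of these, 39 were called in IM 18h mRNA or nuclear RNA, beside 19.0% of the same genes.

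**Figure D5:**
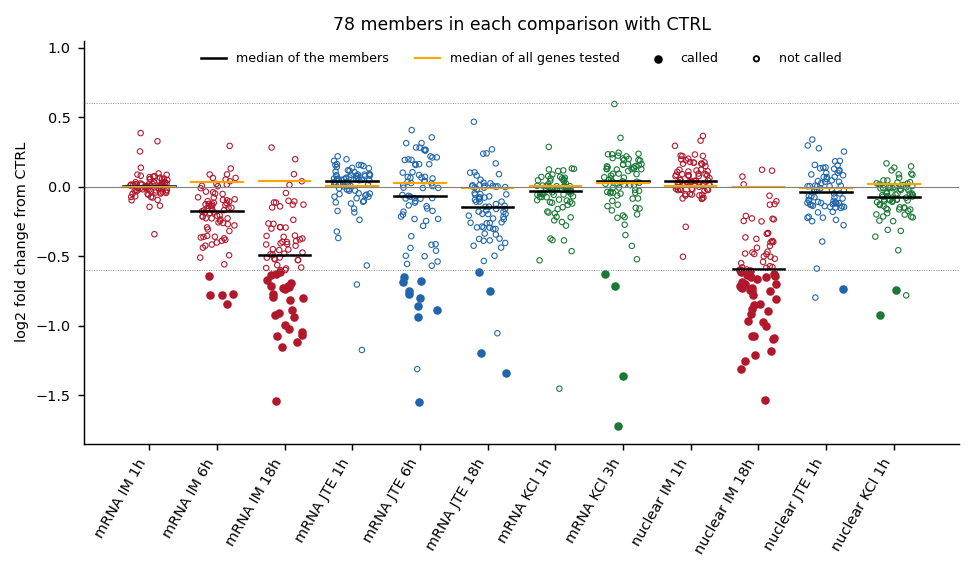
Log2 fold change from CTRL (y axis) of each of the 78 members in every comparison with CTRL (x axis), in red for IM, blue for JTE and green for KCl. Filled points were called, black lines are the medians of the members, orange lines the medians of all genes tested, and dotted lines the fold threshold of 0.6; the member median was furthest below the median of all genes in IM 18h, at -0.49 in mRNA and -0.59 in nuclear RNA.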

How the data were processed

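K562 libraries were grouped by the sample titles. Per the study's methods, the authors trimmed and deduplicated reads with fastp, aligned them to hg38 with STAR, keeping unique alignments with introns of at most 10000 bases, and deposited raw counts of read pairs per gene made with featureCounts. The labels name the build GRCh38.p14, and the annotation release was not given in the sources used here. No strand option was stated for the strand-marked libraries, so reads antisense to a gene could be counted for it, pairs assigned to several genes went uncounted, and 14 members have an intron over 10000 bases whose spanning pairs were lost. Duplicate removal without molecular identifiers can lower abundant transcripts. Symbols, biotypes and positions came from GENCODE 44, which held 57532 of the 58243 gene IDs; all 78 members overlapped their position there. Members and lists were chosen with earlier results of these data known.

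The test was the robust quasi-likelihood test of edgeR 4.0.16 (R 4.3.3) after TMM scaling and filterByExpr, which kept 18095 genes in mRNA and 21929 in nuclear RNA. Each fraction was fitted once with all its libraries, and p-values were adjusted by Benjamini-Hochberg over all genes tested. Calls combined an adjusted p under 0.05 with a log2 change larger than 0.6 in size. Interactions were fitted in 12 libraries. CPM used TMM-scaled totals. The alternatives were DESeq2 1.42.0, RLE scaling, no filter, no fold threshold, fits of 2 groups, a replicate block, thinned counts and leaving out each library. Scripts were tested on simulated data. In nuclear RNA every same-number correlation of deviations between CTRL and treated libraries was above 0.1 (0.235 to 0.891), so the title numbers pair those libraries, as they do for JTE 18h with JTE 6h (0.112 to 0.322) and KCl 3h with KCl 1h (0.584 to 0.671). For mRNA IM 1h, JTE 1h and KCl 1h against CTRL it was 0.846 to 0.877 in replicate 3 and negative in replicates 1 and 2. The study's supplement gives 19031221 mapped reads to mRNA CTRL replicate 1 and 18333127 to replicate 2, the reverse of the library names used here. Whether these CTRL numbers are exchanged, and so whether the early mRNA libraries pair, was not tested. Named for each comparison were the called members with the 4 largest falls and rises, or, with fewer calls, members with an adjusted p under 0.05; for each related list, up to 2 called genes in each direction, and MYC. Further genes were named after their values were seen, MRPS9 and MRPL45 among them. Protein sequences were not used here.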

Additional observations from a re-analysis of the deposited data

Results flagged for a closer look

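The response of 9 members differed between the time points of a treatment by a direct test in mRNA, with no replicate group large enough to test single libraries for outliers. From 6 to 18 h of imatinib the log2 differences were -0.72 for MRPL47, -0.65 for MRPL4, -0.63 for MRPL41, -0.63 for MRPS26, -0.61 for MRPL21 and -0.60 for MRPL3. Of these, MRPL47 and MRPL4 had the largest differences, and the other 4 stood within 0.03 of the fold threshold of 0.6. From 6 to 18 h of JTE the log2 differences were -1.19 for MRPL24, 0.66 for MRPL17 and 1.64 for MRPL53, the last of which rests on 4 to 13 counts per JTE 6h library. Time points of a treatment share no libraries, and no cause was tested.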

How the results depend on the processing

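No called member turned its direction under the alternatives run, but member medians close to 0 did: leaving out 1 library moved them from -0.11 to 0.04 for JTE 6h, -0.05 to 0.16 for KCl 3h, -0.10 to 0.03 for KCl 1h, -0.07 to 0.06 for IM 1h, -0.03 to 0.09 for JTE 1h, -0.0051 to 0.17 for KCl 3h against KCl 1h, -0.01 to 0.07 for nuclear IM 1h and -0.10 to 0.0014 for nuclear JTE 1h, and the medians of the interactions for IM 1h, IM 18h and JTE 1h also changed sign. Without the filter on low counts the KCl 1h median was 0.0034 and the IM 1h median, also under thinning, fell just below 0. Dropping the fold threshold gave 60 members in IM 18h mRNA, 62 in nuclear IM 18h, 14 in IM 6h, 18 in JTE 6h, 10 in JTE 18h, 1 in KCl 1h, 7 in KCl 3h, 15 for IM 18h against IM 6h, 20 for JTE 18h against JTE 6h, 1 for KCl 3h against KCl 1h, 42 for IM 18h against JTE 18h, 2 in nuclear JTE 1h and 5 in nuclear KCl 1h. With no filter on low counts JTE 18h against JTE 6h gave 6 members, the median for IM 18h against JTE 18h was -0.40 and that for nuclear KCl 1h -0.11. With counts thinned to the smallest library KCl 1h gave 1 member and the median for nuclear KCl 1h was -0.035; it was -0.12 in a fit of the 2 groups alone. With the replicate block nuclear JTE 1h gave 2 members and nuclear KCl 1h 3, and JTE 6h, whose title numbers did not pair the libraries with CTRL, 11. The counts of the other comparisons did not change. In mRNA the block used CTRL replicates 1 and 2 as titled, an order that the study's supplement reverses. Leaving out 1 library gave 24 to 37 members in IM 18h mRNA, 30 to 41 in nuclear IM 18h, 3 to 7 in IM 6h, 7 to 16 in JTE 6h, 2 to 4 in JTE 18h, 2 to 4 in KCl 3h, 1 to 11 for IM 18h against IM 6h, 2 to 9 for JTE 18h against JTE 6h and 0 to 1 for KCl 3h against KCl 1h; the medians ran from -0.18 to -0.10 for JTE 18h, -0.40 to -0.25 for IM 18h against IM 6h, -0.19 to -0.047 for JTE 18h against JTE 6h and -0.10 to -0.061 for nuclear KCl 1h. The median member level in mRNA CTRL was 58.2 CPM without division by length and 20.7 CPM per kb with RLE scaling. Over all called members in every comparison, named here or not, 1288 alternative values kept the call and 115 fell short of it with the same direction. The causes were not tested. With 3 replicates per group, changes in the weakly counted MRPS24, MRPL38 and MRPL53 were the least precise.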
